A study of Mus musculus with 6 samples.

Results

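The smooth muscle contractile genes described here encode the actin, myosin and actin-binding proteins that a stellate cell makes when it becomes a myofibroblast: Acta2, Actg2, Tagln, Cnn1, Myl9, Myh11, Lmod1, Tpm1, Tpm2 and Smtn. They were taken by gene symbol from the deposited table, in which all 10 symbols were found among 56691 genes, and all 10 were among the 15987 genes with enough counts to be tested. Bulk poly(A) RNA was sequenced from wild-type (WT) primary hepatic stellate cells of the mouse, liver pericytes that store vitamin A, in 3 groups of 2 libraries. Control cells were untreated, TGF-beta cells received TGF-β, and TGF-beta-K-80003 cells received TGF-β together with K-80003, a compound known as a ligand of the nuclear receptor RXRα. No group received K-80003 alone, so both treated groups carry TGF-β. The sources used here do not give doses, treatment times, or the age and number of mice. Nothing in the labels says that the 2 libraries of a group came from separate cultures or animals, so p-values measure the spread between these libraries, which may be technical.

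Force in a smooth muscle cell comes from myosin filaments that pull on actin filaments, once myosin light chain kinase has phosphorylated the regulatory light chain. Tropomyosin, calponin, transgelin, leiomodin and smoothelin coat, nucleate or crosslink the actin filaments. Serum response factor (SRF) binds CArG boxes in the regulatory sequences of many of these genes, with myocardin or the actin-sensing MRTF proteins as partners, and α-smooth muscle actin, the product of Acta2, is the usual marker of activated stellate cells in liver fibrosis.

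Upstream sequences are shown for 3 of the genes, as examples with and without the SRF motif. The windows of Acta2 and Myl9 held it, and Smtn, without it, was picked because it changed least between the treatments. The windows of Cnn1, Lmod1, Tpm1 and Tpm2 held no CArG box either. Their log2 fold changes in TGF-beta-K-80003 against TGF-beta were -5.62, -2.84, -1.61 and -2.11, against -2.34 for Acta2 and -2.86 for Myl9. Each sequence shown is the 250 bases before the first listed transcription start in RefSeq, build GRCm38.p6, which is not the build of the count table. It is printed 5′ to 3′ on the strand of the gene. Capitals mark a CArG box (CC, 6 bases of which at most 1 is G or C, then GG) and the TEAD factor motif CATTCC, both read on both strands.
Acta2, chr19:34255374-34255623, minus strand: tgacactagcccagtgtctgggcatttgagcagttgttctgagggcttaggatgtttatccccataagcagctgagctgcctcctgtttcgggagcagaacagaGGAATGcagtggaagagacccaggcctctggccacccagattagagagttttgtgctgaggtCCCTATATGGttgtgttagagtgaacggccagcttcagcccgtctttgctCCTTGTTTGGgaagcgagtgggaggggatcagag
Myl9, chr2:156775214-156775463, plus strand: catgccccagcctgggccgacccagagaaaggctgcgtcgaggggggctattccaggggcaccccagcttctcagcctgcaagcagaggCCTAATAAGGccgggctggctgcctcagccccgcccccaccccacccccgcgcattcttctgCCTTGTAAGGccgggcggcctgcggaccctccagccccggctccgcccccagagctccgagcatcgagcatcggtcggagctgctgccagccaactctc
Smtn, chr11:3539293-3539542, minus strand: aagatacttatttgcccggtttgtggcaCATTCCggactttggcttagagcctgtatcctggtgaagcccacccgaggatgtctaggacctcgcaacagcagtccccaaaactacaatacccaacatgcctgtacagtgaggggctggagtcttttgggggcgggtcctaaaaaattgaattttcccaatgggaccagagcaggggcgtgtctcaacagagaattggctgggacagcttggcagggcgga

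The RefSeq promoter table held 7 of the 10 genes, and Actg2, Tagln and Myh11 were not searched. Acta2 carried CArG boxes at 84 to 75 and at 34 to 25 bases before its start, each with 1 G or C in the core. Myl9 carried a box with a pure A and T core at 161 to 152 bases and another at 99 to 90. A CArG box with at most 1 G or C in its core was thus present in 2 of 7 windows, against 8.65% of 27025 promoter windows of the same length, and the box with a pure A and T core in 1 of 7, against 1.4%. CATTCC was present in 4 of 7 (Acta2, Lmod1, Tpm1 and Smtn), against 12.6%. AGGTCA, the half-site of nuclear receptors including RXRα, was in 0 of 7, against 13.8%. A match describes the letters of the window and not binding, and no match says nothing about sequence elsewhere.

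Summed counts ran from 15646093 to 19004144 per library, so that 3 counts were worth 0.158 to 0.192 CPM, the count of a gene per library total on the usual scale. Levels below are CPM after TMM scaling (edgeR's correction for differences in library composition), as mean ± SD with n = 2 unless single libraries are given. The Control and TGF-beta libraries did not separate cleanly by group. Chi-square per degree of freedom over genes was 52.5 between the Control libraries and 43.7 between Control replicate 1 and TGF-beta replicate 2. It was 20.9 between the TGF-beta-K-80003 libraries and 93 to 144 between these and the libraries of the other groups. Within each group the replicates differed with exonic length: in the shortest of 5 equal bins of tested genes (median 1218 bases) the median log2 ratio of replicate 2 over 1 was 0.38 in Control, -0.30 in TGF-beta and 0.20 in TGF-beta-K-80003, and in the longest bin (9413 bases) it was -0.36, 0.35 and -0.26. Of the 10 contractile genes, 8 were higher in Control 2, TGF-beta 1 and TGF-beta-K-80003 2, as were 30.7% of all tested genes. Myh11 and Smtn showed the opposite order, as did 32.5% of all tested genes. Stellate cell genes were present, with Dcn, encoding decorin, at 1703 to 4655 CPM and Des, the muscle-type intermediate filament gene desmin, at 124 to 245 CPM in single libraries.

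**Figure D1:**
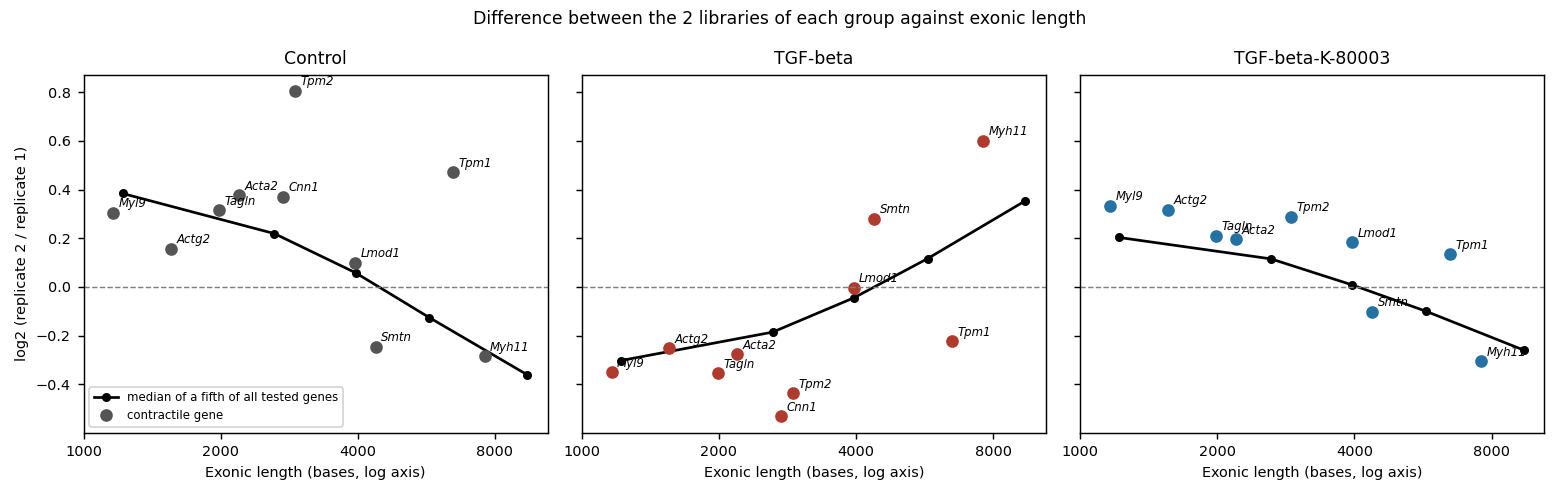
The log2 ratio of replicate 2 over replicate 1 (vertical axis) against exonic length in bases (horizontal axis, log scale) for the contractile genes, beside the medians of all tested genes in 5 bins of length, with a panel for each group. The bin medians fall with length in Control and TGF-beta-K-80003 and rise with length in TGF-beta.

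Per unit of exon length, Acta2 was the most abundant of the 10 genes in every group. Its authors' FPKM was 1182 ± 234 in Control, 2170 ± 347 in TGF-beta and 462 ± 54.4 in TGF-beta-K-80003. In Control it was followed by Tpm1 at 446 ± 108 and Myl9 at 396 ± 64.4, whose libraries overlapped, and then by Tagln at 270.1 ± 45.4 FPKM. Tpm2 (79.3 ± 31.6), Myh11 (31.0 ± 3.87), Smtn (29.2 ± 3.10), Lmod1 (22.5 ± 1.41), Actg2 (10.8 ± 0.98) and Cnn1 (0.545 ± 0.106) completed the order, with only Myh11 and Smtn overlapping. In TGF-beta the libraries of Myl9 (558 ± 109) and Tpm1 (496 ± 66.5 FPKM) overlapped, as did those of Tpm1 and Tagln (431 ± 85.2). In TGF-beta-K-80003, Tagln (192 ± 24.1) and Tpm1 (175 ± 15.5) came after Acta2, and Myl9 followed at 82.8 ± 15.3 FPKM. Smtn came next at 29.8 ± 0.82 FPKM, above Tpm2 at 22.3 ± 3.64, and the last places were held by Myh11 (4.21 ± 0.53), Lmod1 (3.79 ± 0.42), Actg2 (2.36 ± 0.42) and Cnn1. Together the 10 genes took 0.617% and 0.82% of all counts in the Control libraries, 1.13% and 0.925% in TGF-beta and 0.267% and 0.308% in TGF-beta-K-80003, and Acta2 with Tpm1 made up 74.7% to 77.9% of that in every library.

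**Figure D2:**
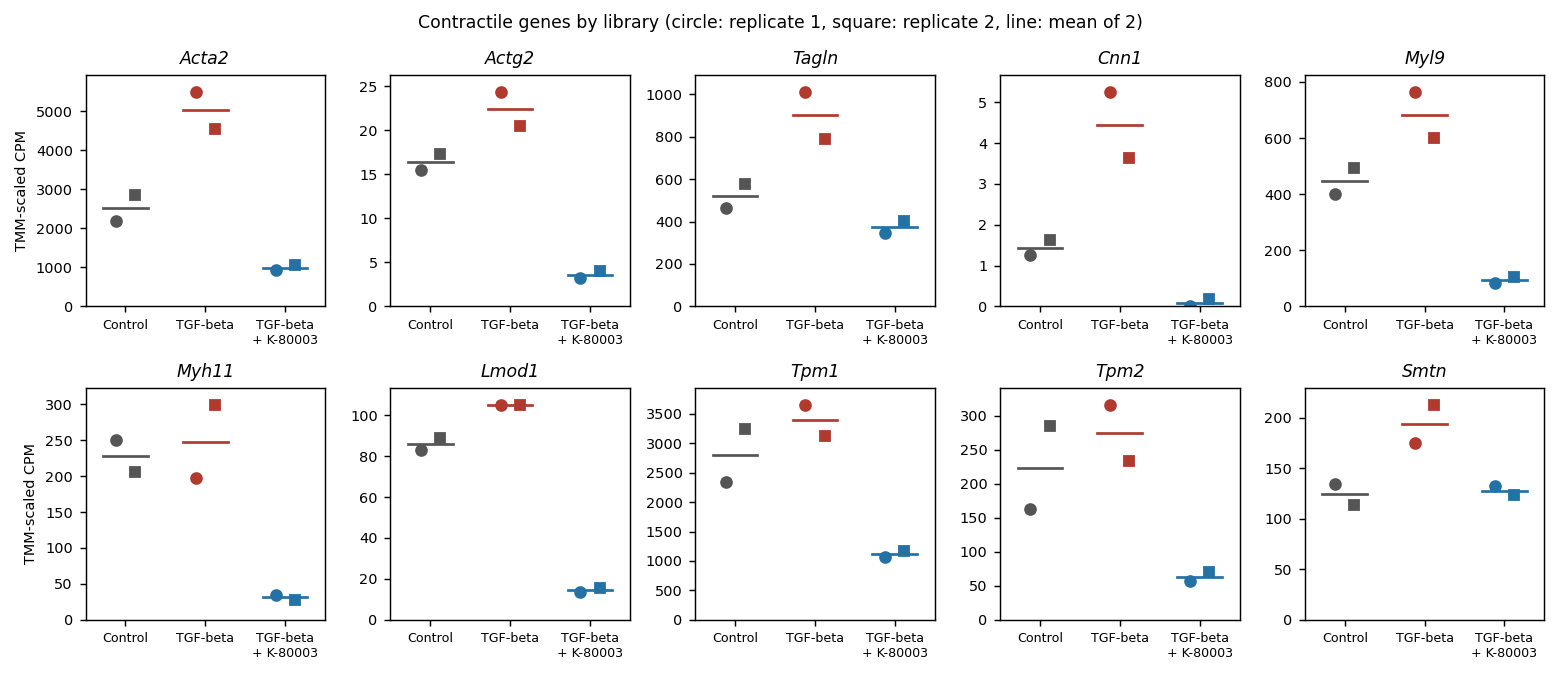
TMM-scaled CPM (vertical axis, from 0) of each contractile gene in each library, grouped by treatment, with the group means. For Acta2 the TGF-beta libraries stand at 5500 and 4538 CPM and the TGF-beta-K-80003 libraries at 926 and 1060 CPM, below both Control libraries.

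Adding K-80003 to TGF-β gave lower RNA levels of the contractile genes. In TGF-beta-K-80003 against TGF-beta, 9 of the 10 fell, all but Smtn (edgeR quasi-likelihood test, Benjamini-Hochberg adjusted p under 0.05 over all tested genes), while 10.1% of all tested genes were called, 7.32% lower and 2.78% higher. The median log2 fold change of the 10 genes was -2.49, against 0.01 over all tested genes, and their range was -5.62 to -0.60. Both TGF-beta-K-80003 libraries lay below both TGF-beta libraries for all 10 genes, Smtn included, as they did for 26.8% of all tested genes. In bulk RNA, fewer cells of a contractile type and less RNA in each cell cannot be told apart.

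Both smooth muscle actin genes fell. Acta2 (ENSMUSG00000035783, chromosome 19, 34218490 to 34232990, minus strand, GRCm39 as in the deposited table) stood at 5500 and 4538 CPM in the TGF-beta libraries and at 926 and 1060 CPM in the TGF-beta-K-80003 libraries. The groups were far apart, and Acta2 fell 5.05-fold (log2 -2.34, SE 0.20, edgeR adjusted p = 0.00149). Actg2 (ENSMUSG00000059430, chromosome 6, 83489887 to 83513247), the enteric smooth muscle γ-actin, went from 24.4 and 20.5 CPM to 3.20 and 3.99 CPM. It fell 6.25-fold (log2 -2.64, SE 0.20, edgeR adjusted p = 0.00107), from a level far below that of Acta2. The actins are near-identical in coding sequence, so reads that fit several of them could have been split or lost in the counting, and their levels are uncertain to that extent.

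Both myosin genes fell more than Acta2 did by the fitted value, although the difference between genes was not tested. Myl9 (ENSMUSG00000067818, chromosome 2, 156617340 to 156623578), the smooth muscle regulatory light chain, stood at 765 and 600 CPM in TGF-beta and at 83.3 and 105 CPM in TGF-beta-K-80003. That is 7.25-fold lower (log2 -2.86, SE 0.22, edgeR adjusted p = 0.00112). Myh11 (ENSMUSG00000018830, chromosome 16, 14012399 to 14109236), the smooth muscle myosin heavy chain and a late differentiation marker, went from 197 and 299 CPM to 34.7 and 28.1 CPM. The TGF-beta libraries of Myh11 differed widely from each other, yet both stood far above the other group, and the gene fell 7.90-fold (log2 -2.98, SE 0.26, edgeR adjusted p = 0.00158).

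Among the genes of actin-filament proteins, Lmod1 had the smallest adjusted p. Lmod1 (ENSMUSG00000048096, chromosome 1, 135252545 to 135295803), a leiomodin that nucleates actin filaments, stood at 105.0 and 104.8 CPM in TGF-beta and at 13.7 and 15.6 CPM in TGF-beta-K-80003. It fell 7.16-fold (log2 -2.84, SE 0.15, edgeR adjusted p = 0.000456), with replicates close together in both groups. Tpm1 (ENSMUSG00000032366, chromosome 9, 66929872 to 66956688), the broadly expressed tropomyosin gene, went from 3653 and 3128 CPM to 1059 and 1163 CPM, a fall of 1.61 on the log2 scale (SE 0.20, edgeR adjusted p = 0.00492). Tpm2 (ENSMUSG00000028464, chromosome 4, 43514711 to 43523765), the β-tropomyosin gene, went from 316 and 233 CPM to 57.1 and 69.8 CPM, log2 -2.11 (SE 0.31, edgeR adjusted p = 0.00901). Both tropomyosin genes fell, but each call was lost without either TGF-beta-K-80003 library, with adjusted p between 0.0517 and 0.0787.

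Tagln and Cnn1 encode related actin-binding proteins that are often read together, and they moved by very different amounts. Tagln (ENSMUSG00000032085, chromosome 9, 45840917 to 45847356), encoding transgelin (SM22α), stood at 1013 and 792 CPM in TGF-beta and at 347 and 402 CPM in TGF-beta-K-80003. It fell 2.41-fold (log2 -1.27, SE 0.20, edgeR adjusted p = 0.011), the least of the 9 called genes, and the call was lost without TGF-beta replicate 1 (0.0597), TGF-beta-K-80003 replicate 1 (0.112) or TGF-beta-K-80003 replicate 2 (0.08). Cnn1 (ENSMUSG00000001349, chromosome 9, 22010512 to 22020926), encoding calponin 1, had 93 and 59 counts in TGF-beta and 0 and 3 counts in TGF-beta-K-80003. The ratio of scaled counts, TGF-beta over TGF-beta-K-80003, was 54.0 with an exact 95% binomial interval of 18.1 to 265 that covers counting error only. Its fitted log2 fold change was -5.62 (SE 0.72, edgeR adjusted p = 0.00566), and this value depends on the small count added in the fit.

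Smtn was the exception. Smtn (ENSMUSG00000020439, chromosome 11, 3467523 to 3490612), encoding smoothelin, a protein of actin filaments in contractile smooth muscle, stood at 175 and 213 CPM in TGF-beta and at 132 and 123 CPM in TGF-beta-K-80003. The libraries did not overlap, but the log2 fold change of -0.60 (95% interval -1.01 to -0.19) did not pass the test (edgeR adjusted p = 0.0835). Its interval lay wholly above the interval of each of the other genes but Tagln, whose interval was -1.74 to -0.80.

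Called changes of 6 genes (Acta2, Actg2, Cnn1, Myl9, Myh11 and Lmod1) held whichever single library was left out and with each of these changes to the fit (other scalings, no filter, DESeq2, limma, the replicate block and the 4 libraries compared). The read counts of Tagln, Tpm1 and Smtn are uncertain where other genes overlap them on the opposite strand, because the sources used here do not give the strand setting. Gm48529, inside Tagln, had 149 to 366 counts per library and fell by 0.96 on the log2 scale in the same comparison (edgeR adjusted p = 0.040).

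**Figure D3:**
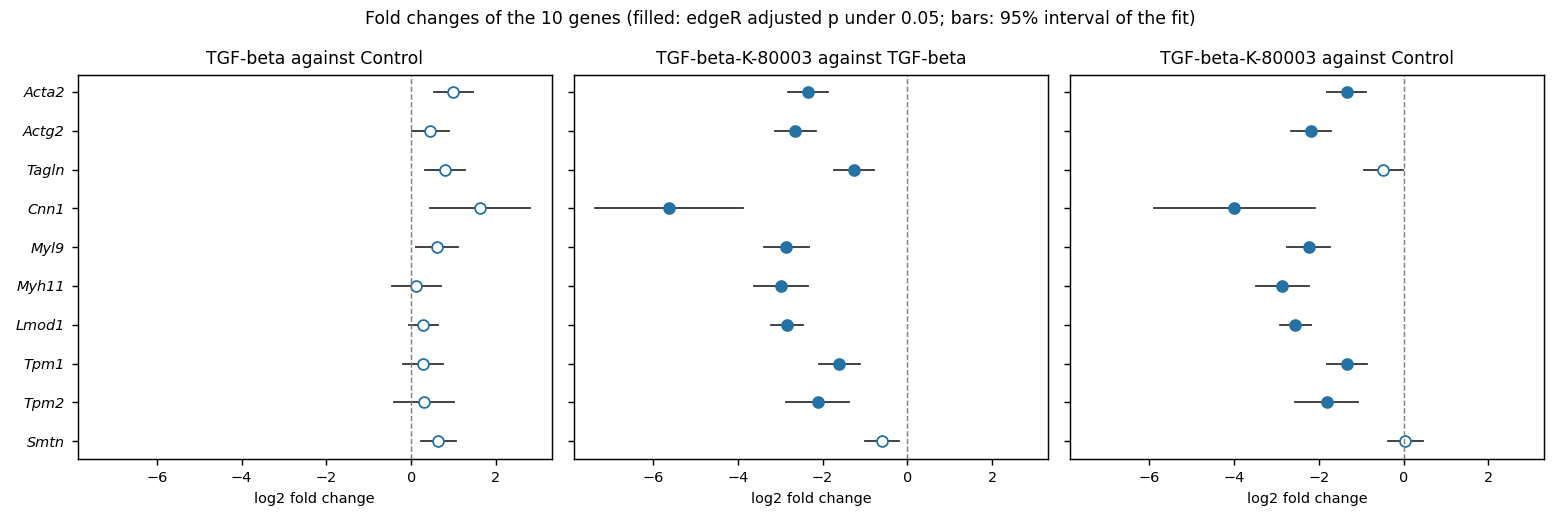
Log2 fold changes of the contractile genes (horizontal axis) in the 3 comparisons, with the 95% interval of the fit as bars and filled points for an edgeR adjusted p under 0.05. In TGF-beta-K-80003 against TGF-beta every point lies below 0 and only Smtn is unfilled, while in TGF-beta against Control every point lies above 0 and none is filled.

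TGF-β alone was followed by higher levels of several of these genes, but none passed the test. In TGF-beta against Control, which shares its TGF-beta libraries with the comparison above, 0 of 10 were called by edgeR, while 2.94% of all tested genes were called, 1.06% higher and 1.88% lower; 6 had an unadjusted p under 0.05, and DESeq2 called 2, Acta2 and Tagln. All 10 fold changes were positive, with a median log2 of 0.53 against 0.01 over all tested genes. For 7 genes both TGF-beta libraries stood above both Control libraries, against 18.5% of all tested genes, and for Myh11, Tpm1 and Tpm2 the groups overlapped.

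Acta2 came nearest to the threshold. Its Control libraries stood at 2188 and 2842 CPM and its TGF-beta libraries at 5500 and 4538 CPM, a log2 fold change of 1.00 (95% interval 0.54 to 1.45, edgeR adjusted p = 0.0512). With median-of-ratios scaling the adjusted p was 0.0498, so the side of the threshold on which Acta2 falls depends on the scaling. Tagln went from 464 and 577 CPM to 1013 and 792 CPM (log2 0.79, SE 0.20, edgeR adjusted p = 0.102). Both genes separated completely by group, with the lower TGF-beta library well above the higher Control library.

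Cnn1 had the largest fitted value, 1.62 on the log2 scale (SE 0.49, edgeR adjusted p = 0.176), from 20 and 28 counts in Control and 93 and 59 counts in TGF-beta. Smtn went from 135 and 114 CPM to 175 and 213 CPM (log2 0.64, edgeR adjusted p = 0.125) and Myl9 from 399 and 493 CPM to 765 and 600 CPM (log2 0.61, edgeR adjusted p = 0.224). Actg2 and Lmod1 had log2 fold changes of 0.45 and 0.29, with adjusted p of 0.313 and 0.448. The genes that overlapped had the smallest or least certain differences: Myh11 at 0.12 (95% interval -0.46 to 0.70), Tpm1 at 0.28 (-0.19 to 0.75) and Tpm2 at 0.30 (-0.42 to 1.01). For Myh11 the sign itself changed with the scaling, to -0.0059 with scaling by library size alone.

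After removal of each library's trend over exonic length, an alternative chosen after seeing the data, 4 of the 10 genes were called higher with TGF-β: Acta2 (adjusted p = 0.00286), Tagln (0.00809), Myl9 (0.0268) and Smtn (0.0486). The same fit called 1052 of all tested genes, against 470 without it.

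With K-80003 present, most of the contractile genes stood below the untreated cells and not only below the TGF-β cells. In TGF-beta-K-80003 against Control, 8 of the 10 fell (edgeR), while 17.3% of all tested genes were called, 11.7% lower and 5.54% higher; the exceptions were Tagln and Smtn. The median log2 fold change was -2.0, against 0.02 over all tested genes, and for 9 genes both TGF-beta-K-80003 libraries stood below both Control libraries, against 28.1% of all tested genes. This comparison shares libraries with each of the others.

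Myh11 stood at 251 and 206 CPM in Control and fell 7.27-fold (log2 -2.86, SE 0.26, edgeR adjusted p = 0.0012), and Lmod1, at 83.1 and 89.0 CPM in Control, fell 5.87-fold (log2 -2.55, SE 0.15, edgeR adjusted p = 0.000351). Myl9 and Actg2 fell 4.74-fold and 4.56-fold (edgeR adjusted p = 0.00141 and 0.00121). These 4 calls held whichever library was left out. Acta2 fell 2.53-fold (log2 -1.34, SE 0.19, edgeR adjusted p = 0.00557), a call lost without TGF-beta-K-80003 replicate 1 (0.0589).

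Tpm1 stood at 2347 and 3252 CPM in Control and fell 2.52-fold, and Tpm2, at 162 and 284 CPM, fell 3.52-fold (edgeR adjusted p = 0.00644 and 0.0103). Both of these calls were lost without either TGF-beta-K-80003 library, with adjusted p from 0.0546 to 0.0811. Cnn1, with 48 counts in Control and 3 in TGF-beta-K-80003, was called (edgeR adjusted p = 0.0178), with a ratio of scaled counts, Control over TGF-beta-K-80003, of 17.4 (exact 95% binomial interval 5.61 to 87.3). That call was lost without Control replicate 2 (0.0603) and without TGF-beta-K-80003 replicate 1 (0.0581).

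Tagln had a log2 fold change of -0.48 (95% interval -0.94 to -0.01, edgeR adjusted p = 0.159), its TGF-beta-K-80003 libraries lying below both Control libraries. Smtn stood at 0.04 (95% interval -0.37 to 0.45, edgeR adjusted p = 0.911), with overlapping libraries, and its sign changed to -0.04 with upper-quartile scaling. Without TGF-beta-K-80003 replicate 1, 4 of the 10 genes were called in this comparison.

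The contractile genes have close relatives that most cells use for the cytoskeleton. Acta2, Actg2, Myl9, Myh11, Tagln, Tpm1, Tpm2 and Cnn1 each took a smaller share of their family in both TGF-beta-K-80003 libraries than in either library of the other groups, and Smtn a larger one; no share was computed for leiomodins. These shares are of summed FPKM, that is per exonic length, and are described without a test, since 2 libraries against 2 allow no exact two-sided permutation p below 0.333. Acta2 took 35.0% and 35.1% of actin FPKM in Control, 49.5% and 50.0% in TGF-beta, and 25.1% and 24.7% in TGF-beta-K-80003. Actb, the cytoplasmic β-actin, took 55.2% and 55.9%, 42.3% and 42.7%, and 61.5% and 61.2%. By these shares Acta2 was the second actin in Control, the first in TGF-beta and the second in TGF-beta-K-80003. This order is uncertain to the extent that reads shared by the actins were split or lost. The level of Actb fell in TGF-beta-K-80003 against TGF-beta (log2 -0.81, edgeR adjusted p = 0.049), so its larger share was not a higher level.

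Myl9 took 73.0% and 71.5% of regulatory light chain FPKM in Control, 78.1% and 77.0% in TGF-beta, and 42.9% and 44.0% in TGF-beta-K-80003, where Myl12a, its non-muscle relative, held 51.0% and 49.8%. Myh11 took 12.6% and 14.2% of myosin II heavy chain FPKM in Control, 12.9% and 12.4% in TGF-beta, and 1.87% and 1.9% in TGF-beta-K-80003. Myh9, the non-muscle heavy chain, was the main form throughout, at 76.6% to 94.4% in single libraries. The 2 libraries of each group lay close together in the shares of these 3 genes, closer relative to the level than in their CPM.

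Tagln took 49.1% to 52.0% of transgelin FPKM in Control and TGF-beta libraries and 28.2% and 28.4% in TGF-beta-K-80003, the rest being almost wholly Tagln2, the form of non-muscle cells. Tpm1 took 44.1% to 48.9% of tropomyosin FPKM in the Control and TGF-beta libraries and 32.9% and 33.4% in TGF-beta-K-80003, while Tpm4, a cytoskeletal tropomyosin gene, held 53.1% and 51.7% there. Tpm1 yields muscle and non-muscle isoforms that gene-level counts do not separate. Cnn1 was under 0.4% of calponin FPKM in every library, with Cnn2 and Cnn3 making up the rest. Smtn ran the other way, with 86.9% to 92.7% of smoothelin FPKM in Control and TGF-beta libraries and 99.3% in both TGF-beta-K-80003 libraries, where Smtnl2 was nearly absent.

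**Figure D4:**
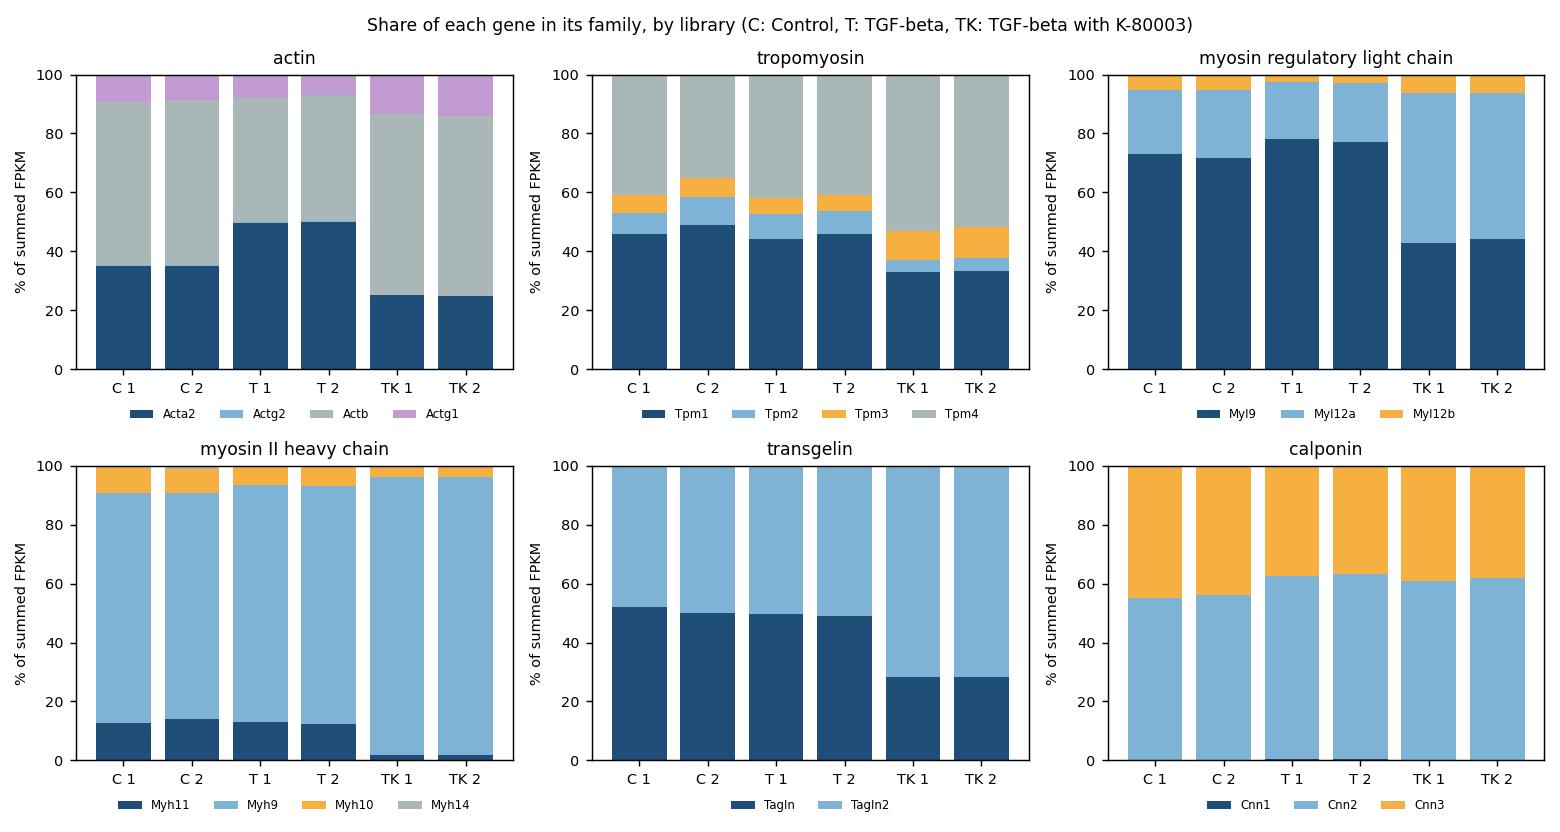
Share of each protein family's summed FPKM (vertical axis, percent, from 0) taken by the contractile form and by its relatives, in each of the 6 libraries. The Acta2 share is near 35% in Control, near 50% in TGF-beta and near 25% in TGF-beta-K-80003, and the 2 libraries of each group nearly coincide.

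Of 24 paralogs, 20 were tested, and 7 fell and 0 rose in TGF-beta-K-80003 against TGF-beta (edgeR, median log2 -0.72). Over all tested genes 7.32% fell and 2.78% rose. Cnn2 (log2 -0.98, adjusted p = 0.017), Cnn3 (-0.90, adjusted p = 0.0206) and Tpm4 (-0.83, adjusted p = 0.0241) fell, and so did Smtnl2, a smoothelin-like gene, with a log2 fold change of -4.81 (adjusted p = 0.00076). Actb (log2 -0.81, adjusted p = 0.049), Myl12b (-0.89, adjusted p = 0.0307) and Lmod2 complete the count and were named after their values were seen. Lmod2, a leiomodin of striated muscle, had 10 and 31 counts in Control, 25 and 20 in TGF-beta and 0 in both TGF-beta-K-80003 libraries, at least 16.0-fold lower than TGF-beta when set against a floor of 3 counts over the group. Tagln2 had a log2 fold change of 0.04 here (95% interval -0.45 to 0.53) and rose against Control (log2 0.91, adjusted p = 0.0286). With TGF-β alone the only call was Myh14, a non-muscle myosin heavy chain gene, which fell (log2 -1.97, edgeR adjusted p = 0.0163). Of all tested genes 2.94% were called there. The Myh14 call was lost without either Control library or without TGF-beta replicate 1. The paralog count of 7 was 1 without either TGF-beta-K-80003 library, 2 without TGF-beta replicate 1, 4 without TGF-beta replicate 2, 4 with scaling by library size alone and 1 with limma on log2(FPKM + 1).

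Of 22 other genes of the contractile apparatus and its anchorage, 21 were tested. In TGF-beta-K-80003 against TGF-beta 13 fell and 0 rose (edgeR, median log2 -1.20), with all 21 fold changes negative. Over all tested genes 7.32% fell and 2.78% rose. Synpo2, an actin-bundling protein gene, fell from 17.1 and 25.2 CPM to 2.62 and 1.35 CPM (log2 -3.40, adjusted p = 0.0026). Palld, encoding the actin scaffold palladin, fell from 252 and 265 CPM to 79.1 and 74.3 CPM (log2 -1.75, adjusted p = 0.00127). Kcnmb1, the smooth muscle subunit of a calcium-activated potassium channel, fell by 1.67 on the log2 scale (adjusted p = 0.015). Fhl2 and Fhl1, LIM-domain protein genes, fell by 1.06 and 1.42 (edgeR adjusted p = 0.0149 and 0.00228). Fhl1 had also fallen with TGF-β alone (log2 -0.91, edgeR adjusted p = 0.0275). It was the only call of the list in that comparison, where 2.94% of all tested genes were called. The Fhl1 call with TGF-β alone was lost whichever library was left out. The count of 13 was 6 without TGF-beta-K-80003 replicate 1 and 5 without replicate 2.

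Of 14 focal adhesion and actin linker genes, all tested, 3 fell and 1 rose in TGF-beta-K-80003 against TGF-beta (edgeR, median log2 -0.45). Over all tested genes 7.32% fell and 2.78% rose. Parva, an α-parvin gene, fell by 1.03 (adjusted p = 0.00627), and the α-actinin genes Actn4 and Actn1 fell by 0.99 and 0.79 (adjusted p = 0.0138 and 0.0442), while Parvb, the β-parvin gene, rose (log2 0.72, adjusted p = 0.0226). None of the 14 was called in TGF-beta against Control, where Actn1 had a log2 fold change of 0.72 (adjusted p = 0.114). All 4 calls were lost without either TGF-beta-K-80003 library, and 1 was left without TGF-beta replicate 2.

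Of 16 genes for proteins that switch myosin on and off, all tested, 2 fell and 0 rose in TGF-beta-K-80003 against TGF-beta (edgeR; median log2 -0.33), a share near the 10.1% of all tested genes called. Mylk, the myosin light chain kinase gene, stood at 905 and 1312 CPM in TGF-beta and at 346 and 277 CPM in TGF-beta-K-80003 (log2 -1.83, SE 0.26, adjusted p = 0.00767). Ppp1r14a, encoding CPI-17, an inhibitor of myosin phosphatase, went from 85.8 and 56.1 CPM to 11.6 and 13.6 CPM (log2 -2.50, SE 0.33, adjusted p = 0.00634). Ppp1r12b, a targeting subunit of the phosphatase, had a log2 fold change of -1.50 that did not pass (adjusted p = 0.0813). The count of 2 was 1 without TGF-beta-K-80003 replicate 1, 0 without replicate 2 and 4 without Control replicate 2, and it was 8 after removal of the length trend.

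**Figure D5:**
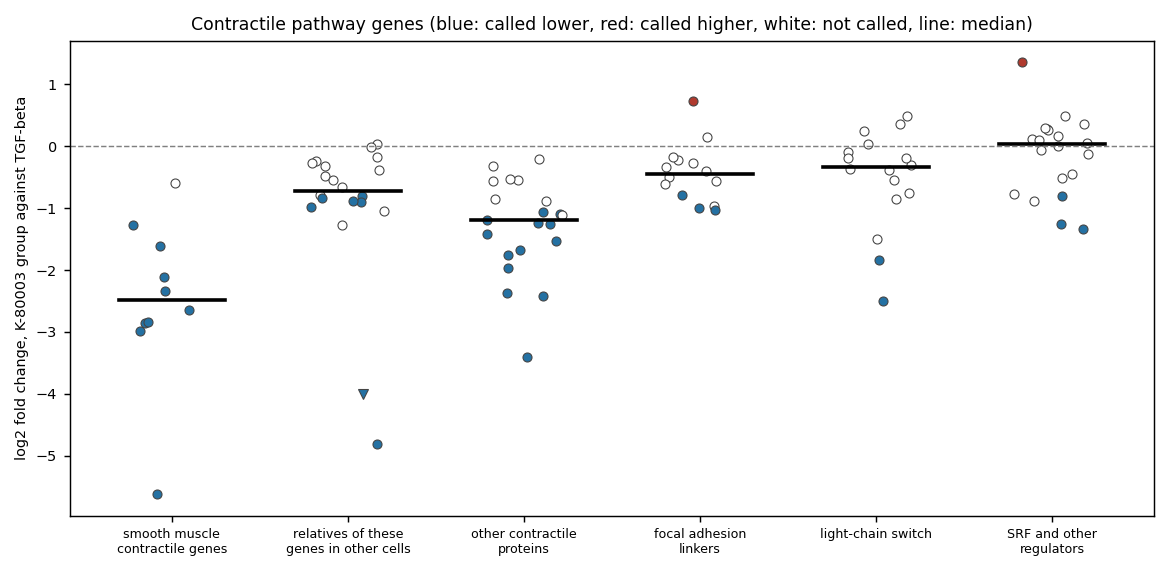
Log2 fold change of each tested gene (vertical axis) in TGF-beta-K-80003 against TGF-beta, by list: the 10 contractile genes, their paralogs, other contractile genes, focal adhesion and actin linkers, light-chain switch, and SRF with other regulators. Blue points were called lower and red points higher (edgeR adjusted p under 0.05), lines are medians, and Lmod2, with 0 counts in both TGF-beta-K-80003 libraries, is a triangle at its bound.

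Srf, the gene of SRF itself, stood at 85.6 and 84.6 CPM in Control, 86.1 and 80.8 CPM in TGF-beta and 58.1 and 58.8 CPM in TGF-beta-K-80003. The difference did not pass against TGF-beta (log2 -0.51, SE 0.13, edgeR adjusted p = 0.0653) and passed against Control (log2 -0.54, SE 0.13, adjusted p = 0.0387). The MRTF genes had log2 fold changes of -0.44 for Mrtfa (adjusted p = 0.357) and -0.07 for Mrtfb (adjusted p = 0.959) against TGF-beta. Myocd, the myocardin gene, had 1 count in TGF-beta-K-80003 replicate 1 and 0 elsewhere, so it was not detectable at this depth.

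Of the 20 tested SRF cofactors and other regulators, 1 rose and 3 fell in TGF-beta-K-80003 against TGF-beta (edgeR, median log2 0.04). Over all tested genes 2.78% rose and 7.32% fell. The gene that rose was Klf4, a zinc finger factor known to repress smooth muscle genes in vascular smooth muscle cells, at 98.0 and 84.9 CPM in Control, 91.6 and 93.4 CPM in TGF-beta and 246 and 228 CPM in TGF-beta-K-80003. Its Control and TGF-beta libraries were alike and the K-80003 libraries stood far above them (log2 1.36, SE 0.15, adjusted p = 0.00328). Tead3, a TEAD factor gene, fell by 1.34 (adjusted p = 0.00474) and Tcf21, a mesenchymal factor gene, by 1.26 (adjusted p = 0.00767); the other that fell was Gata6, named after its values were seen. Klf5 was the only gene of the list called with TGF-β alone, where 2.94% of all tested genes were called. It fell (log2 -1.39, edgeR adjusted p = 0.0222), a call lost whichever library was left out. Without either TGF-beta-K-80003 library 1 gene of the list was called, and after removal of the length trend 8 were.

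Markers of other cells moved with the groups as well. For the counts below, 1.06% of all tested genes were called higher and 1.88% lower with TGF-β alone. In TGF-beta-K-80003 against TGF-beta, 2.78% were called higher and 7.32% lower. Vascular smooth muscle and pericyte markers, a list that shares Kcnmb1, Itga8 and Des with the other contractile genes, summed to 1416 and 1210 CPM in Control, 1078 and 1250 CPM in TGF-beta and 638 and 585 CPM in TGF-beta-K-80003. Of its 14 genes, 10 were tested, 5 of which fell and 0 rose in TGF-beta-K-80003 against TGF-beta; Rergl had 0 counts in every library and Cspg4, Pln and Casq2 stayed under 1 CPM. Stellate identity markers summed to 11610 and 9608 CPM in Control, 8286 and 9553 CPM in TGF-beta and 5710 and 4706 CPM in TGF-beta-K-80003, with 7 of 12 lower in that comparison. Among the most abundant of them, Reln did not pass in that comparison (log2 0.13, edgeR adjusted p = 0.922) and Pdgfrb fell (log2 -1.21, edgeR adjusted p = 0.0321). Lrat, the retinol-esterifying enzyme gene of quiescent stellate cells, had the largest fall of the list and was named after its values were seen. It was at 1101 and 776 CPM in Control, 392 and 478 CPM in TGF-beta and 11.0 and 12.4 CPM in TGF-beta-K-80003. Portal fibroblast markers summed to 147 and 127 CPM in Control, 408 and 441 CPM in TGF-beta and 316 and 292 CPM in TGF-beta-K-80003. Of 7 tested, 4 were called higher with TGF-β alone and 4 of 7 lower with K-80003. Fbln2, the most abundant, averaged 58.5, 233 and 263 CPM in that order of groups, and Eln 21.6, 116 and 14.3 CPM. Thy1 and Pi16 stayed under 1 CPM. With TGF-β alone 2 of the 7 had negative fold changes, among them Cd34, from 3.48 to 1.14 CPM. The part of any of these cells in the contractile gene results was not tested.

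The summed mesothelial and duct markers were lower with TGF-β than in Control. Mesothelial markers summed to 669 and 955 CPM in Control, 216 and 174 CPM in TGF-beta and 155 and 190.3 CPM in TGF-beta-K-80003. The keratin genes Krt8, Krt18 and Krt19 made up most of the Control sum, averaging 356, 257 and 162 CPM there. Of 5 tested, 4 were called lower with TGF-β alone (Msln and these keratin genes), against 1.88% of all tested genes. Wt1, the other, averaged 2.25 CPM in Control and 4.07 CPM in TGF-beta. Upk1b, Upk3b and Gpm6a stayed under 1 CPM. Duct markers, a list that also holds Krt19, summed to 466 and 646, 261 and 204, and 160.1 and 184 CPM. Of 7 tested, 3 were called lower with TGF-β alone, Krt19 among them. Sinusoidal endothelial markers summed to 774 and 630.2, 421 and 524, and 848 and 744 CPM. In TGF-beta-K-80003 against TGF-beta 3 of these 10 rose, Pecam1 (log2 0.82, edgeR adjusted p = 0.0154) among them. Of these 10, 1 fell, Lyve1, from a mean of 2.29 CPM in TGF-beta to 0.085 CPM in TGF-beta-K-80003. The abundant Cdh5 and Stab1 did not pass (log2 1.14 and 0.22, edgeR adjusted p = 0.0625 and 0.738). Over all tested genes 2.78% rose and 7.32% fell. Macrophage markers summed to 47.3 and 46.4, 49.0 and 46.7, and 24.7 and 30.0 CPM. Of the 7 tested, only Lyz2, encoding lysozyme, was called in TGF-beta-K-80003 against TGF-beta. It fell (log2 -1.37, edgeR adjusted p = 0.00938), as did 7.32% of all tested genes. Hepatocyte markers summed to 4.04 to 43.2 CPM, with the highest hepatocyte sum in TGF-beta-K-80003 replicate 2. Their part in the results was not tested.

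Among the genes whose pattern over the 6 libraries was most like that of Acta2 were Dact3, Eno3, Prss23, C1qtnf2 and Mmp23, none of them contractile. Likeness was the root mean square difference of log2 CPM, each gene centred on its own mean, over 8242 genes, and was 0.09 for Dact3, 0.13 for Eno3, 0.17 for Prss23, 0.21 for C1qtnf2 and 0.22 for Mmp23. These genes were chosen for their values in these libraries, so they are a description with no test. Among the contractile genes, the nearest to Acta2 were Tpm2 (0.31, rank 20), Tpm1 (0.34, rank 26), Actg2 (0.36, rank 35) and Myl9 (0.38, rank 40). Tagln (0.46) stood at rank 84, Lmod1 (0.51) at rank 134, Myh11 (0.72) at rank 592 and Smtn (0.79) at rank 926, and Cnn1 was below the level of 20 CPM used for the ranking.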

How the data were processed

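The table that the authors deposited gives, per the file headers, whole-number read counts and FPKM for each gene and library. The FPKM values, as deposited, equalled count over exonic length and summed count within 0.005 for 100% of values, so they hold no further normalization. The submitters' processing notes name HISAT2 2.0.1, HTSeq 0.6.1 and the build GRCm39, then cutadapt 1.9.1, Cufflinks 2.2.1, DESeq2 and SAMtools 0.1.19, with no role or order. The sources used here do not give the strand setting or the annotation release. The protocol names no molecular identifiers, so intervals and floors cover counting error only.

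Counts were tested with edgeR 4.0.16 (R 4.3.3) by the quasi-likelihood test fitted to all 6 libraries with no block, after filterByExpr (minimum count 10, minimum total 15) and TMM scaling, with 3 residual and 3.45 prior degrees of freedom. Tests were two-sided and adjusted by Benjamini and Hochberg over the 15987 genes tested. Genes left out held 0.13% of counts. Alternatives used other scalings, DESeq2 1.42.0, limma 3.58.1 on log2(FPKM + 1) or log2(FPKM + 0.1), a replicate block and leaving out each library. Within groups the libraries differed beyond counting noise (chi-square per degree of freedom of 20.9 or more), so no pair was treated as the same library deposited again, which does not show that they are separate cultures.

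Genes named are the 10 contractile genes, up to 3 per list with the smallest p in each of the first 2 comparisons, SRF and its cofactors, abundant markers and the 6 nearest to Acta2, of which 1 is not reported here. The genes and lists were chosen with earlier results of these data known. Genes of the 5 other lists named by that rule and not described did not pass the test in any comparison. Outside the 10 genes, the alternatives were followed as counts per list.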

Additional observations from a re-analysis of the deposited data

How the results depend on the processing

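In TGF-beta against Control, the 0 contractile genes called became 1 with median-of-ratios scaling, 3 without the low-count filter, 2 with DESeq2, 4 with the length trend removed and 9 with a crossed replicate block, and stayed at 0 with any library left out. All tested genes called there (470) became 1143 without the filter, 735 with DESeq2, 199 with the 4 libraries compared, 1052 with the length trend removed and 89 to 218 with a library left out. In TGF-beta-K-80003 against TGF-beta, leaving out a library left 6 to 9 of 9 calls, and 451 to 1661 of all genes against 1616; it was 2492 without the filter and 2586 with the length trend removed. In TGF-beta-K-80003 against Control it left 4 to 8 of 8 calls and 996 to 2397 of all genes, against 2758. A group left with 1 library is assumed to vary like the others. Where not given by construction (more genes kept, fewer libraries), the cause was not tested.

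Same-numbered libraries were compared by each gene's log2 CPM minus the mean of its own group, over 15987 genes. These deviations, and not the levels themselves, correlated at -0.75 (Control and TGF-beta), 0.643 (Control and TGF-beta-K-80003) and -0.64 (TGF-beta and TGF-beta-K-80003). As no label ties the numbers together and the signs differ between pairs of groups, the numbers were not taken to pair the libraries. The replicate block gave 40, 792 and 1564 calls over all genes in the 3 comparisons in the order above, and the Cnn1 call against Control was lost (adjusted p = 0.0534). A block with crossed TGF-beta numbers, like the length trend chosen after seeing the data, gave 3708, 5903 and 7352 calls.

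Some small differences reversed. Myh11 with TGF-β was -0.0059 by library size alone, -0.0242 and -0.0255 by limma with 1 and 0.1 added, and between -0.19 and 0.36 with a library left out (below 0 without Control 2 or TGF-beta 2). Tpm2 with TGF-β was between -0.0492 (without Control 1) and 0.757. Smtn against Control was -0.0364 by upper-quartile scaling and between -0.0987 (without Control 2) and 0.165 with a library left out, and -0.0087 without TGF-beta-K-80003 1. Smtn passed against TGF-beta without the filter (adjusted p = 0.0465) and with the length trend removed (0.0342). Tagln passed against Control with the latter (0.041).

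Scaling by library size alone moved the median log2 of all genes to -0.11 and 0.11 in the first 2 comparisons. The higher share of calls went from 36.2% to 25.9% in the first and from 27.5% to 37.9% in the second, and with limma to 22.9% and 40.2% with 1 added and to 25.7% and 37.9% with 0.1 added. Genes of few counts, Cnn1 above all, are limited by depth.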

Other observations

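Tpm1 is overlapped on the opposite strand by an unnamed gene, ENSMUSG00000121089 (chromosome 9, 66948432 to 66948683), with 119 and 60 counts in Control, 58 and 115 in TGF-beta and 28 and 20 in TGF-beta-K-80003. It fell in TGF-beta-K-80003 against Control (log2 -2.04, edgeR adjusted p = 0.0459) and did not pass against TGF-beta (log2 -1.96, adjusted p = 0.074). Within Control and TGF-beta its replicates were ordered opposite to those of Tpm1. Pcsk7, which overlaps an end of Tagln on the opposite strand, had 586 to 799 counts per library and a log2 fold change of 0.06 in TGF-beta-K-80003 against TGF-beta (adjusted p = 0.882). Acta1, the skeletal muscle actin gene, fell in TGF-beta-K-80003 against Control, from 116 to 16 counts summed over the group's libraries (ratio of scaled counts, Control over TGF-beta-K-80003, 7.88, exact 95% binomial interval 4.66 to 14.3); it was named after its values were seen.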
